A study of Mus musculus with 60 samples.

Results

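The 7 genes described here are the DNA methyltransferases Dnmt1, Dnmt3a and Dnmt3b, the hemimethylation reader Uhrf1, and the 5-methylcytosine dioxygenases Tet1, Tet2 and Tet3. They were taken by name from a table of 23420 entries, and all 7 were among the 10720 genes tested, those with a mean of at least 10 normalised counts over 20 libraries. RNA was sequenced from fetal liver erythroblasts of C57BL/6 mouse embryos that carried a mutant Gata1 allele (Gata1s) or were wild type, at embryonic days E14.5 and E12.5. Cells were sorted on the transferrin receptor CD71 and the erythroid antigen Ter119. R3 cells had high CD71 and high Ter119, and the less mature R1/2 cells had high CD71 and less Ter119, which one label puts at negative to low and the sorting notes at negative to medium. The Gata1s and wild-type groups held 2 and 2 libraries at E14.5 R3, 2 and 3 at E12.5 R3, 3 and 2 at E14.5 R1/2, and 4 and 2 at E12.5 R1/2. The labels do not say whether libraries of a group came from separate embryos, so p-values measure the spread between these libraries, which may be technical. A gene is said to be called where its adjusted p in limma, a linear model over log2(normalised count + 1), was under 0.05 after Benjamini-Hochberg adjustment over all genes tested.

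GATA1 is the master transcription factor of red cell development, and Gata1s names its short form, which lacks the N-terminal activation domain. DNMT1 copies CpG methylation after replication and is brought to hemimethylated sites by UHRF1, while DNMT3A and DNMT3B set new methyl groups. TET enzymes oxidise 5-methylcytosine, with 2-oxoglutarate as co-substrate, a step towards its removal. Maturing erythroblasts of the fetal liver are known to lose DNA methylation across the genome. These are RNA data, so neither methylation nor enzyme activity was measured.

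Promoter windows, 250 bases before to 50 after an annotated start, were taken from RefSeq (GRCm38.p6) by symbol. All 7 genes matched, with 12 windows. The letters TTTCCCGC, TTTGGCGC, TTTCGCGC and TTTGCCGC, known as sites of the cell cycle factors E2F, were searched on both strands. Among the 7 genes they occurred in a window of Dnmt1 and of Uhrf1, the maintenance pair. These windows are printed because no other member held the letters, with the matches in capitals, 5′ to 3′ on the gene's strand. The window of Dnmt3b, which like those of the other members held none of these letters, is printed beside them. Any link of the letters to RNA levels was not tested. The Dnmt1 window is chr9:20952574-20952873 (minus strand), that of Uhrf1 chr17:56304063-56304362 (plus strand) and that of Dnmt3b chr2:153649199-153649498 (plus strand).
Dnmt1: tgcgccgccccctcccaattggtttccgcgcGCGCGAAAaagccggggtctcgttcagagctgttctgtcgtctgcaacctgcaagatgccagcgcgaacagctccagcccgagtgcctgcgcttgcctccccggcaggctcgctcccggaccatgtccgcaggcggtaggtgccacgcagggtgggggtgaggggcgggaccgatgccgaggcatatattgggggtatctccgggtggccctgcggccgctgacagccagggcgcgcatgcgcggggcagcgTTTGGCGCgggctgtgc
Uhrf1: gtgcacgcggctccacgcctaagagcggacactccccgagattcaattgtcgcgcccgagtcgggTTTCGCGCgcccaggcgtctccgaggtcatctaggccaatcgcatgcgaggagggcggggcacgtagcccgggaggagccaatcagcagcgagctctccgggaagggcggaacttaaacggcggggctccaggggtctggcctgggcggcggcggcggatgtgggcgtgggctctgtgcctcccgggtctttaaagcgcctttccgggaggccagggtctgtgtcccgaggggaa
Dnmt3b: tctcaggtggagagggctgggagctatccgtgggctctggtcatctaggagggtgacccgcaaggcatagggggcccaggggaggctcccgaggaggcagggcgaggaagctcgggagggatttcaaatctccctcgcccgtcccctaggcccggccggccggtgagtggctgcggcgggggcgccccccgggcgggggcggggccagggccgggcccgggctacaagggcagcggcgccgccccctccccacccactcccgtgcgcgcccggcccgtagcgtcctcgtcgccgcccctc

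The printed Dnmt1 window held 2 E2F matches, 219 bases before and 33 bases after the annotated start that defines it. The printed Uhrf1 window held 1, 185 bases before its own. Dnmt1 had 3 windows and Uhrf1 had 2, each set by another annotated start, and the windows not printed held 0 matches. Which start these cells use was not tested, so a match before 1 start may lie after another. The letters stood in 2.3% of all 32851 windows and in a window of 2.6% of all 27025 genes. Of 33 S phase genes with a window, 16 held them (48.5%). The letters CCAAT, on either strand, stood in windows of Dnmt1, Uhrf1 and Tet3 and in 37.4% of all windows. GATA letters, preceded by A or T and followed by A or G and searched on both strands, stood in 1 window of Dnmt1, in none of the other members and in 29.8% of all windows. The CpG-richest window of each member held 17 (Tet1) to 57 (Tet2) CpG. The median over all single windows was 7, which is not a like measure for genes with several windows. Other windows of Dnmt1 held 12 and 2 CpG, and the other window of Uhrf1 held 12. A match describes letters in a window and says nothing of binding.

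Libraries held 6931315 to 32699098 reads, and 1 read was worth 0.36 to 4.72 normalised counts. Beside the deposited scale, values are given as CPM, each library's reads set to the same total, a scale added after the deposited values had been seen. All 14 erythroblast markers had reads in every library, and globin genes took a mean of 10.1% of reads in Gata1s and 13.01% in wild-type libraries of E14.5 R3, and 3.20% and 9.15% in those of E12.5 R3. The summed erythroblast markers were 441295 to 441995 normalised counts in Gata1s and 779993 to 1133590 in wild-type E12.5 R3, while at E14.5 R3 the sums were 1567700 to 1588550 in Gata1s and 1458240 to 2121380 in wild type. Megakaryocyte markers, 15 genes, summed to 3534 to 3899 in Gata1s and 953 to 1477 in wild-type E12.5 R3, while at E14.5 R3 their sum was 4259 to 5366 in Gata1s and 1065 to 1129 in wild type. In each Gata1s R3 group 14 of these genes had reads in every library, against 11 in wild-type E12.5 R3 and 10 in wild-type E14.5 R3, where Selp was at 0. At E14.5 R3, 12 hepatoblast markers summed to 97.0 to 199 in Gata1s and 373 to 4089 in wild type. There 11 macrophage markers summed to 129 to 143 in Gata1s, with Cd163 and Timd4 at 0, and 311 to 496 in wild type. Stem and progenitor markers, 13 genes, summed there to 20949.4 to 23741.5 in Gata1s and 9341 to 15752 in wild type. Of these genes, 7 had reads in every Gata1s and 9 in every wild-type library there, and 6 passed the filter on low values. In the less mature E14.5 R1/2 their sum was lower, at 6816 to 7427 in Gata1s and 7784 to 8538 in wild type. A sum can rest on a few abundant genes, so this one does not measure a share of progenitors. At E14.5 R3 endothelial markers summed to 156 to 170 in Gata1s and 208 to 242 in wild type. Lymphoid and mast cell markers summed to 10.8 to 14.8 in Gata1s and 62.9 to 66.1 in wild type. Between sorts of wild-type E14.5, the hepatoblast sum of 373 to 4089 in R3 stood against 89.4 to 259 in R1/2. The 14 neutrophil and monocyte markers summed to 1544 to 3439 in the wild-type E14.5 R3 libraries and to 834 to 20941 in those of R1/2, a pair that had the lowest correlation of all replicates (0.965). The part of these cell types in the results, those between sorts of wild-type E14.5 included, was not tested. Gata1 itself had 14197 and 13744 normalised counts in Gata1s and 9614 and 10803 in wild-type E14.5 R3, but a gene-level count does not show which form is made and so does not check the labels. Library names begin with JC (8 libraries) or MS (12), whose meaning is not stated, and every Gata1s R3 library is MS. Each fit held a term for this prefix, and no member was called for it.

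**Figure D1:**
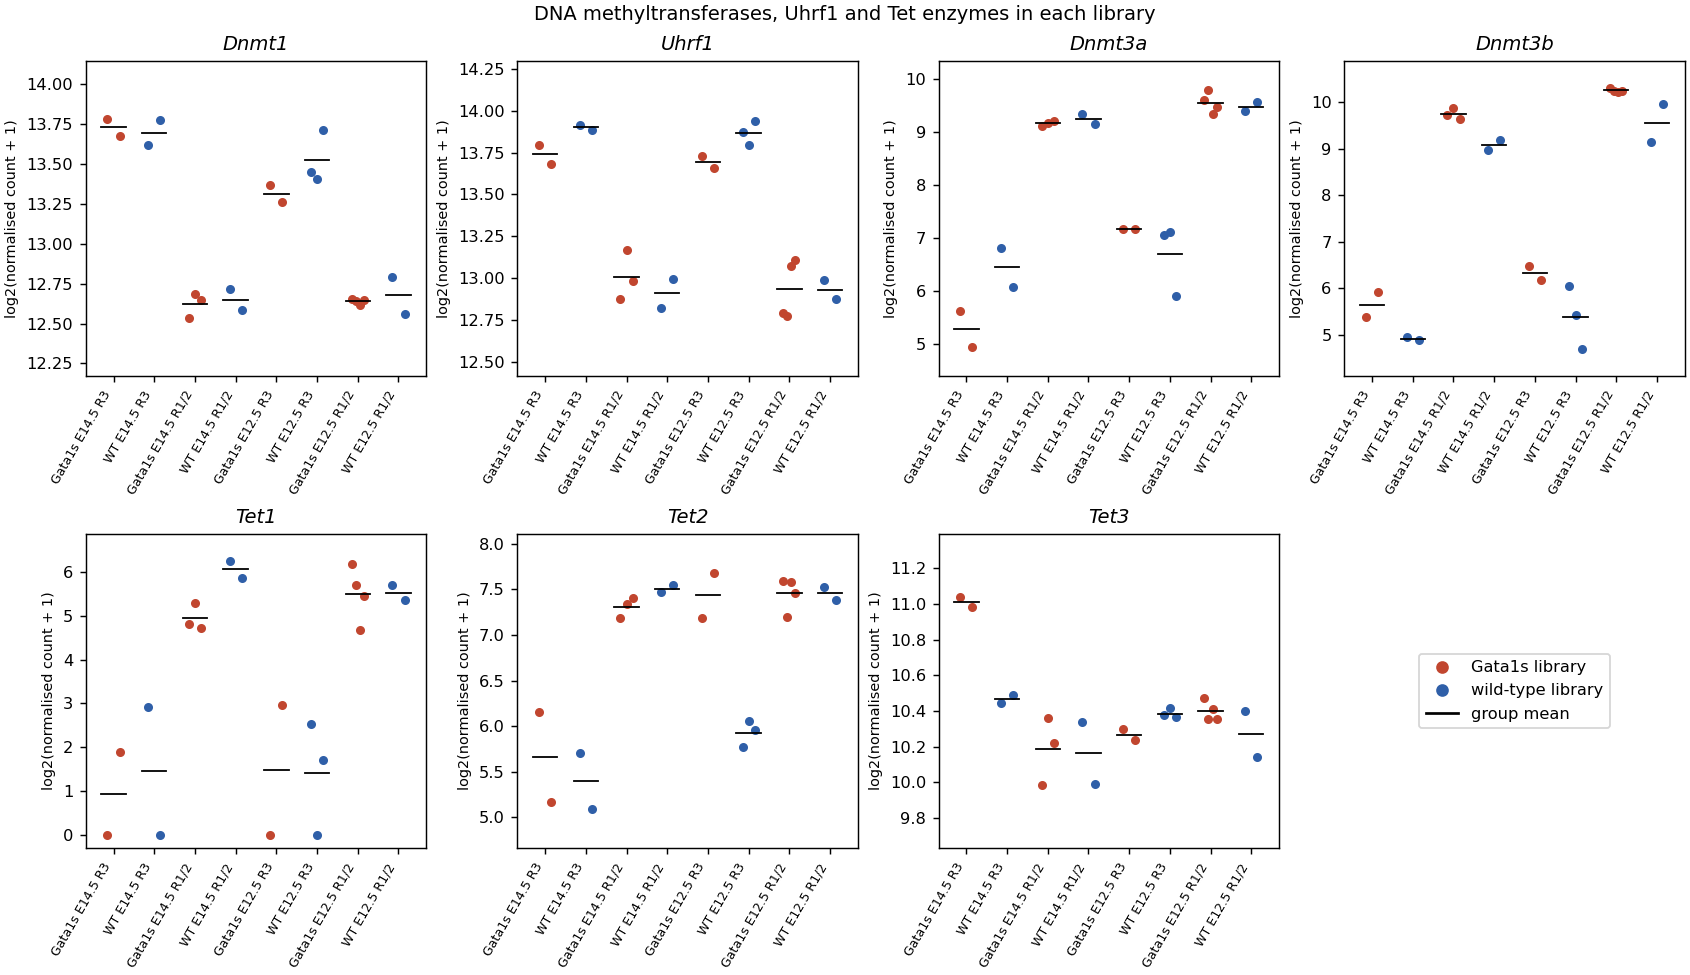
Level of each gene in each library, as log2(normalised count + 1) on the deposited scale, with Gata1s and wild-type libraries side by side in each day and sort. Dnmt3a, Dnmt3b and Tet1 stand lower in every R3 group than in R1/2, and Dnmt1 and Uhrf1 stand higher, an order of the pair that turns at E14.5 in CPM.

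The maintenance pair, Dnmt1 and Uhrf1, was higher in R3 than in R1/2 in both genotypes on the deposited scale, but not in CPM at E14.5. Dnmt1 had 14109 and 13087 normalised counts in Gata1s E14.5 R3 against 5936, 6579 and 6405 in Gata1s E14.5 R1/2. In wild type at E14.5 it had 12607 and 14014 in R3 against 6723 and 6137 in R1/2. The sorts did not overlap, which held in the higher direction for 41.4% of all genes tested in Gata1s and 40.7% in wild type. At E12.5 Dnmt1 had 10568 and 9808 in Gata1s R3 against 6442, 6378, 6278 and 6421 in Gata1s R1/2, and 11195, 10877 and 13432 in wild-type R3 against 7106 and 6034 in wild-type R1/2. The log2 differences on the deposited scale, R3 minus R1/2, were 1.10 ± 0.09 and 1.05 ± 0.10 (SE) in Gata1s and wild type at E14.5, and 0.65 ± 0.09 and 0.85 ± 0.09 at E12.5 (limma, adjusted p at most 1.13e-05).

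Uhrf1 had 14212 and 13160 normalised counts in Gata1s E14.5 R3 against 7505, 9187 and 8098 in Gata1s E14.5 R1/2, and 15444 and 15157 in wild-type E14.5 R3 against 7244 and 8170 in wild-type E14.5 R1/2. At E12.5 it had 13564 and 12941 in Gata1s R3 against 7091, 7003, 8602 and 8820 in Gata1s R1/2, and 15025, 14204 and 15718 in wild-type R3 against 8123 and 7507 in wild-type R1/2. Here too no R3 library overlapped R1/2, as was so for 38.6% of all genes in Gata1s and 38.7% in wild type at E12.5. The log2 differences on the deposited scale were 0.69 ± 0.09 and 0.99 ± 0.10 in Gata1s and wild type at E14.5, and 0.69 ± 0.09 and 0.96 ± 0.09 at E12.5 (limma, adjusted p at most 4.33e-06).

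The direction for this pair depends on how libraries are scaled. In CPM, the median log2 difference of all genes tested was -1.32 in Gata1s and -1.35 in wild type at E14.5, and -0.37 and -0.85 at E12.5. Of the genes called, 47.4% and 47.5% at E14.5 (Gata1s, wild type) and 49.1% and 47.8% at E12.5 were higher in R3 on the deposited scale, and 18.3%, 16.7%, 31.1% and 20.4% in CPM. On that scale Dnmt1 read -0.12 and -0.21 at E14.5 (Gata1s, wild type), neither called, and 0.33 and 0.079 at E12.5, the first called. Uhrf1 read -0.53, called lower (adjusted p = 0.000781, limma), and -0.27 at E14.5, and 0.36, called, and 0.19 at E12.5. Set against the median of all genes, Dnmt1 stood 1.20 and 1.14 above it at E14.5 and 0.69 and 0.93 at E12.5, and Uhrf1 0.79, 1.08, 0.73 and 1.03. The same distances on the deposited scale were 1.21, 1.16, 0.69 and 0.93 for Dnmt1 and 0.80, 1.10, 0.73 and 1.04 for Uhrf1. After quantile normalisation, Dnmt1 stood within 0.07 of the median at E14.5, and Uhrf1 stood at -0.44 and -0.16 from it. In bulk samples, fewer cells of a type and less RNA per cell cannot be told apart.

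The de novo enzymes fell in R3 in both genotypes, at both days and on each scale run. Dnmt3b had 40.6 and 59.3 normalised counts in Gata1s E14.5 R3 against 843, 942 and 795 in Gata1s E14.5 R1/2, and 29.8 and 28.3 in wild-type E14.5 R3 against 500.2 and 581 in wild-type E14.5 R1/2. At E12.5 it had 88.6 and 71.3 in Gata1s R3 against 1263, 1216, 1187 and 1210 in Gata1s R1/2, and 64.9, 41.8 and 24.9 in wild-type R3 against 567.8 and 1001 in wild-type R1/2. Levels in R3 rest on 6 to 81 reads per library and lie far below every R1/2 library, and such a lack of overlap in the lower direction held for 46.8% and 45.1% of all genes at E14.5 (Gata1s, wild type) and 42.5% and 43.3% at E12.5. The log2 differences were -4.08 ± 0.30 and -4.17 ± 0.32 at E14.5 (Gata1s, wild type) and -3.89 ± 0.29 and -4.18 ± 0.29 at E12.5 (limma, adjusted p at most 9.01e-09).

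Dnmt3a, which is often mutated in human blood cancers, had 47.9 and 29.6 normalised counts in Gata1s E14.5 R3 against 549, 569 and 587 in Gata1s E14.5 R1/2. In wild type at E14.5 it had 111 and 66.1 in R3 against 646 and 567 in R1/2. At E12.5 it had 141.5 and 142.7 in Gata1s R3 against 769, 883, 643 and 704.5 in Gata1s R1/2, and 131, 137 and 58.9 in wild-type R3 against 666 and 750.5 in wild-type R1/2. The sorts did not overlap. The log2 differences were -3.76 ± 0.25 and -2.81 ± 0.27 at E14.5 (Gata1s, wild type) and -2.20 ± 0.25 and -2.84 ± 0.25 at E12.5 (limma, adjusted p at most 9.39e-07). In RefSeq Dnmt3a overlaps the antisense RNA Dnmt3aos, and Tet1 and Tet3 also overlap long noncoding RNAs. The sources used here do not give whether counting used strand, so reads from the overlap of such pairs cannot be told apart. Of these long noncoding RNAs only that of Tet3, B230319C09Rik, has an entry of its own, whose level is not reported here.

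**Figure D2:**
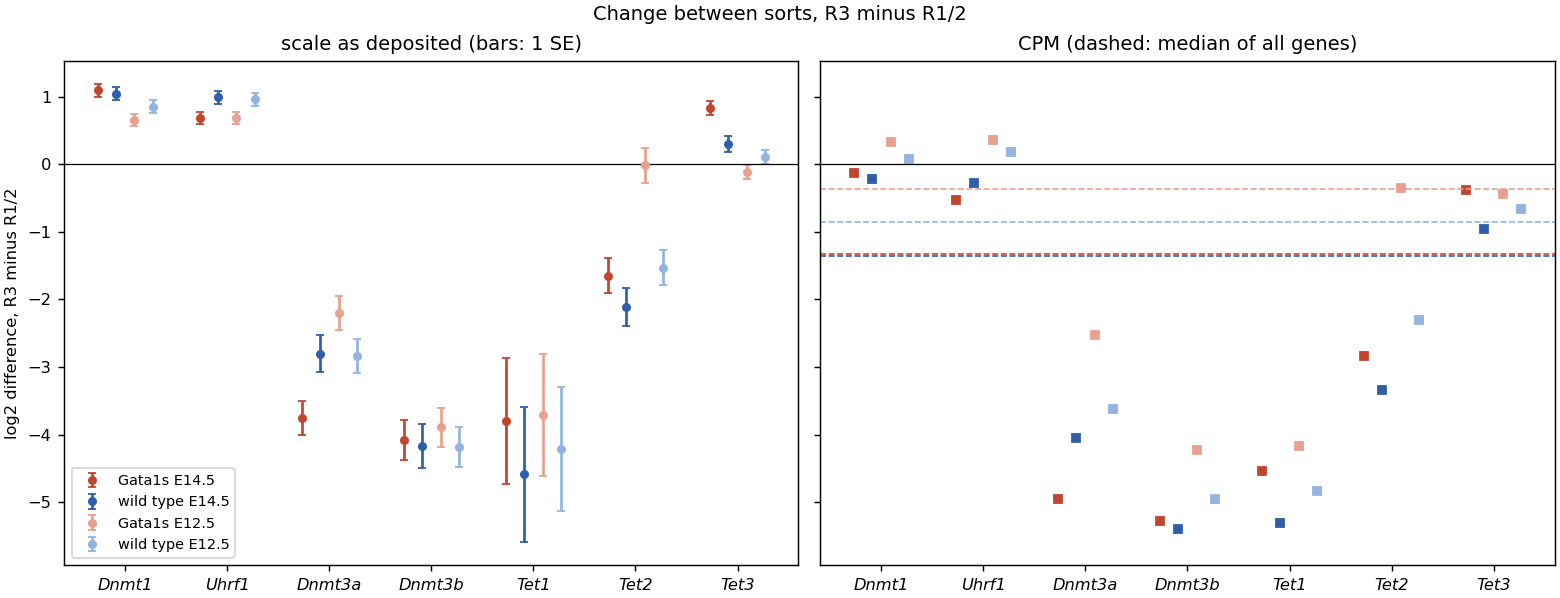
Log2 difference of each gene between sorts, R3 minus R1/2, by genotype and day, on the deposited scale (left, bars for 1 SE) and in CPM (right, dashed lines for the median of all genes in each comparison). Dnmt3a, Dnmt3b and Tet1 lie below 0 in every comparison on both scales, while Dnmt1 and Uhrf1 lie above 0 on the deposited scale and below 0 at E14.5 in CPM.

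The Tet genes did not move together. Tet1 had 0 and 2.69 normalised counts in Gata1s E14.5 R3 against 27.1, 38.3 and 25.2 in Gata1s E14.5 R1/2, and 6.62 and 0 in wild-type E14.5 R3 against 75.4 and 56.8 in wild-type E14.5 R1/2. At E12.5 it had 0 and 6.86 in Gata1s R3 against 71.1, 51.05, 24.5 and 42.4 in Gata1s R1/2, and 4.81, 0 and 2.27 in wild-type R3 against 50.97 and 39.7 in wild-type R1/2. R3 libraries held 0 to 6 reads of it, so the size of a fitted difference depends on the pseudocount. Tet1 was called lower in R3 in all 4 comparisons, with log2 differences of -4.59 to -3.71 and adjusted p of 0.00054 to 0.00176 (limma). The call in Gata1s E12.5 was lost without the first R3 library (0.0666).

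Tet2, also often mutated in human blood cancers, fell in R3 in 3 of the 4 comparisons. It had 70.1 and 35.0 normalised counts in Gata1s E14.5 R3 against 144.6, 161 and 169 in Gata1s E14.5 R1/2, and 51.3 and 33.1 in wild-type E14.5 R3 against 176 and 186 in wild-type E14.5 R1/2. In wild type at E12.5 it had 53.7, 65.6 and 61.2 in R3 against 184 and 166 in R1/2. In Gata1s at E12.5 the R3 libraries, at 144.99 and 204, spanned the range of the R1/2 libraries, at 192, 146, 191 and 176. The log2 differences were -1.65 ± 0.26 and -2.11 ± 0.28 at E14.5 (Gata1s, wild type, adjusted p = 2.21e-05 and 3.61e-06, limma) and -1.53 ± 0.26 in wild type at E12.5 (5.43e-05). In Gata1s at E12.5 the difference was -0.016 ± 0.25 (adjusted p = 0.961), with a 95% interval of -0.55 to 0.52, and it read 0.23 after quantile normalisation.

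Tet3 was called higher in R3 at E14.5 on the deposited scale but lower in CPM. It had 2106 and 2020 normalised counts in Gata1s E14.5 R3 against 1011, 1315 and 1190 in Gata1s E14.5 R1/2, and 1395 and 1435 in wild-type E14.5 R3 against 1293 and 1016 in wild-type E14.5 R1/2. The log2 difference was 0.83 ± 0.11 in Gata1s (adjusted p = 2.94e-06, limma) on the deposited scale and -0.38 in CPM (0.0165). In wild type it was 0.30 ± 0.12 (adjusted p = 0.0283) on the deposited scale and -0.96 in CPM. These CPM values stood 0.94 and 0.40 above the median of all genes. The wild-type call on the deposited scale was lost in edgeR's quasi-likelihood test (0.0701) and without the second R1/2 (0.408) or the second R3 library (0.133). At E12.5 Tet3 averaged 1231 ± 37.7 in Gata1s R3 and 1349 ± 53.0 in Gata1s R1/2, and 1337 ± 23.9 in wild-type R3 and 1239 ± 159 in wild-type R1/2 (SD, n = 2, 4, 3 and 2), and neither difference passed on the deposited scale. In CPM Tet3 was lower in R3 at E12.5 too, by -0.44 in Gata1s and -0.67 in wild type, where the medians of all genes were -0.37 and -0.85.

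Between sorts on the deposited scale, 3 members were called higher and 4 lower at E14.5 in each genotype, where 38.7% of all genes tested were called higher and 43.0% lower in Gata1s, and 37.7% and 41.6% in wild type. At E12.5 the counts were 2 higher and 3 lower in Gata1s (33.9% and 35.1% of all genes) and 2 higher and 4 lower in wild type (35.9% and 39.1%). A call between sorts was thus common among all genes.

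Averaged over days and sorts, Dnmt3b was higher in Gata1s. It had 40.6 and 59.3 normalised counts in Gata1s against 29.8 and 28.3 in wild type at E14.5 R3, and 88.6 and 71.3 in Gata1s against 64.9, 41.8 and 24.9 in wild type at E12.5 R3. In R1/2 it had 843, 942 and 795 in Gata1s against 500.2 and 581 in wild type at E14.5, and 1263, 1216, 1187 and 1210 in Gata1s against 567.8 and 1001 in wild type at E12.5. No Gata1s library overlapped wild type in any day and sort, which held, in the higher direction, for 25.8%, 25.2%, 18.1% and 17.2% of all genes in the same order. The mean of the 4 log2 differences, Gata1s minus wild type, was 0.78 ± 0.16, a 1.72-fold higher level (adjusted p = 0.000754, limma, and 0.00583, edgeR). It ranged from 0.61 to 0.95 with each of the 20 libraries left out, called each time, and read 0.81 within prefix MS. Megakaryocyte markers were also higher in Gata1s R1/2, as in R3 above, summing to 1278 to 1447 in Gata1s and 383 to 431 in wild type at E14.5, and to 1390 to 2669 in Gata1s and 509 to 580 in wild type at E12.5. Of 11 such markers tested, 7 were called higher in R1/2 at each day. Of all genes, 10.1% and 9.55% were called there in either direction (E14.5, E12.5). Neutrophil and monocyte markers summed to 1487 to 3507 in Gata1s and 261 to 1252 in wild-type E12.5 R1/2. At E14.5 R1/2 their sums were 5012 to 5367 in Gata1s, within the 834 to 20941 of wild type. The part of these markers in the Dnmt3b result was not tested.

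Taken singly, the difference in Dnmt3b passed the main test at E12.5 R3 alone, at 0.99 ± 0.31 (adjusted p = 0.0218, limma). That call was lost in edgeR's test (0.128) and without the first Gata1s (0.139) or the third wild-type library (0.251), and within prefix MS, with that 1 wild-type library, the value was 1.64. The differences at E14.5 R3, E14.5 R1/2 and E12.5 R1/2 were 0.77 ± 0.33 (0.0807), 0.68 ± 0.29 (0.179) and 0.69 ± 0.28 (0.148). EdgeR's test called both R1/2 differences (0.0274 at E14.5 and 0.0183 at E12.5), and limma called that at E12.5 R1/2 without the second wild-type library (1.20, 0.0301), while without the first it was 0.19 (0.854).

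Tet2 was higher in Gata1s at E12.5 R3, with 144.99 and 204 normalised counts against 53.7, 65.6 and 61.2 in wild type. The log2 difference was 1.52 ± 0.27, a 2.86-fold higher level (adjusted p = 0.000468, limma, and 6.85e-05, edgeR). It stayed called without any of the 5 libraries (1.27 to 1.76) and read 1.48 within prefix MS. At E14.5 R3 the groups overlapped, with 70.1 and 35.0 in Gata1s and 51.3 and 33.1 in wild type (0.27 ± 0.29, adjusted p = 0.497, and -0.22 without the first Gata1s or -0.12 without the second wild-type library). In R1/2 no difference passed at either day (-0.19 ± 0.26 at E14.5 and 0.0025 ± 0.24 at E12.5). At E14.5 R1/2 the Gata1s libraries lay below wild type without overlap, which held for 20.6% of all genes in that direction. The lower globin share and erythroblast marker sum and the higher megakaryocyte marker sum of Gata1s E12.5 R3, given above, stand beside this result, and their part in it was not tested.

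The effect of genotype on Tet2 in R3 exceeded that in R1/2 by 0.99 ± 0.27 over both days (adjusted p = 0.0159, limma, and 0.0149, edgeR), where 8.81% of all genes were called in that direction. The call was lost without the second wild-type library of E14.5 R3 (0.0688), within prefix MS (1.04, 0.0703) and after quantile normalisation (0.77). The effect at E14.5 minus that at E12.5 was -0.72 ± 0.26 (adjusted p = 0.0997), and was called without the first Gata1s (0.018) or the second wild-type library of E14.5 R3 (0.0304).

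**Figure D3:**
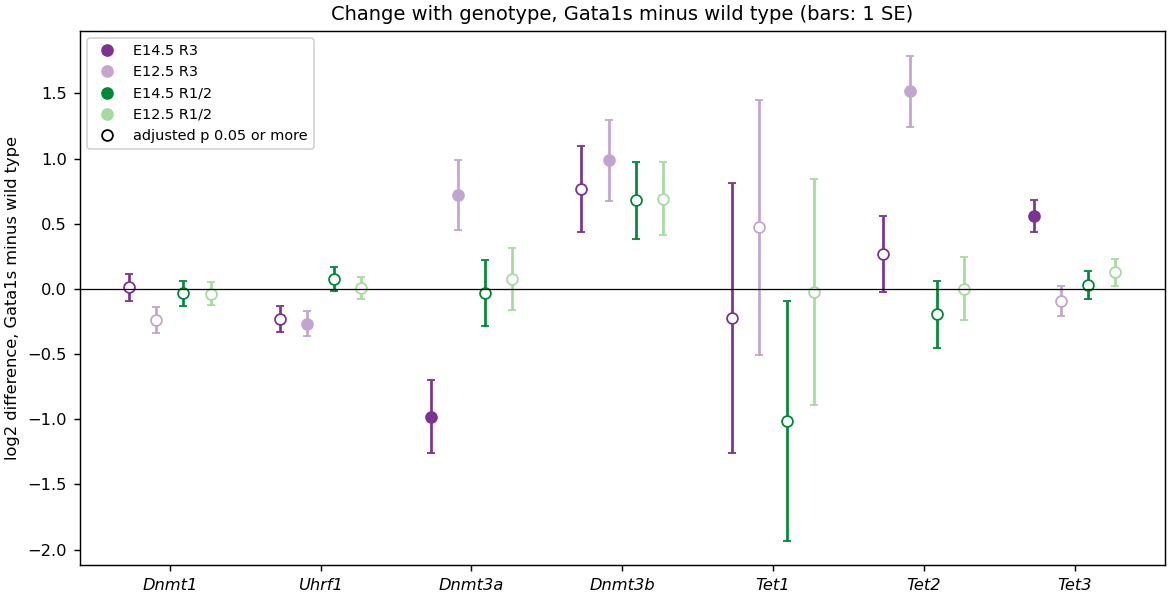
Log2 difference of each gene between genotypes (y axis), Gata1s minus wild type, in each day and sort on the deposited scale, with bars for 1 SE and open points where the adjusted p was 0.05 or more. Dnmt3b lies between 0.68 and 0.99 throughout, Tet2 reaches 1.52 at E12.5 R3, and Dnmt3a lies at -0.98 in E14.5 R3 and at 0.72 in E12.5 R3.

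Dnmt3a differed between genotypes in opposite directions in R3 of the 2 days. At E14.5 R3 it had 47.9 and 29.6 normalised counts in Gata1s against 111 and 66.1 in wild type, with no overlap (so for 31.5% of all genes in the lower direction) and a log2 difference of -0.98 ± 0.28 (adjusted p = 0.0124, limma, and 0.0365, edgeR). These levels rest on 11 to 67 reads per library, and the call was lost without the second Gata1s (0.143) or the first wild-type library (0.0733). At E12.5 R3 it had 141.5 and 142.7 in Gata1s against 131, 137 and 58.9 in wild type, a difference of 0.72 ± 0.27 (adjusted p = 0.046). Without the third wild-type library, the low one, it was 0.28 (0.435), and within prefix MS, where that library is the wild-type value, it was 1.26. The call was also lost without either Gata1s library (0.136 and 0.142) and in edgeR's test (0.0925).

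The effect on Dnmt3a at E14.5 minus that at E12.5, averaged over sorts, was -0.90 ± 0.25 (adjusted p = 0.0398, limma, and 0.0372, edgeR), where 2.30% of all genes were called in that direction. It was lost on leaving out any 1 of 13 of the 20 libraries (0.0509 to 0.124) and was not called within prefix MS (-0.93), with no filter or with no prefix term (-0.90 in both) or in CPM outside globin genes (-1.01). In R1/2 the differences were -0.030 ± 0.25 at E14.5 and 0.075 ± 0.24 at E12.5, neither called.

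Tet3 was higher in Gata1s at E14.5 R3, with 2106 and 2020 normalised counts against 1395 and 1435 in wild type. The log2 difference of 0.56 ± 0.12, 1.48-fold higher (adjusted p = 0.00202, limma, and 0.00216, edgeR), stayed called without any of the 4 libraries (0.52 to 0.61), but not with these 4 libraries alone in the fit (0.0764). The effect at E14.5 minus that at E12.5 was 0.28 ± 0.11 (adjusted p = 0.131), and was called without the first Gata1s (0.0335) or the first wild-type library of E14.5 R1/2 (0.0474). Averaged over days and sorts, Tet3 was higher in Gata1s by 0.16 ± 0.06 (adjusted p = 0.0404, limma), lost on leaving out any 1 of 13 libraries. Its differences were 0.56 at E14.5 R3, -0.096 at E12.5 R3, 0.030 at E14.5 R1/2 and 0.13 at E12.5 R1/2. Tet2 was higher by 0.40 ± 0.14 on the same average (0.0277, limma), lost on leaving out any 1 of 6 libraries and within prefix MS. Its differences in the same order were 0.27, 1.52, -0.19 and 0.0025. On the deposited scale the Tet3 average thus rests mainly on E14.5 R3 and that of Tet2 on E12.5 R3. In CPM, Tet3 at E12.5 R3 was higher in Gata1s too, at 84.2 and 79.2 against 73.5, 70.0 and 62.4 in wild type. Most genes called there were higher in Gata1s on that scale, as given below.

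Uhrf1 at E12.5 R3 had 13564 and 12941 normalised counts in Gata1s against 15025, 14204 and 15718 in wild type. The groups did not overlap, which held in the lower direction for 31.0% of all genes there. The values gave a log2 difference of -0.27 ± 0.10 (adjusted p = 0.0397, limma) that turned to 0.17 in CPM and 0.14 after quantile normalisation. The call was lost without any 1 of the 5 libraries (0.0538 to 0.177) and in edgeR's test (0.0912). At E14.5 R3 it had 14212 and 13160 in Gata1s against 15444 and 15157 in wild type (-0.23 ± 0.10, adjusted p = 0.0869). The genotype effect in R3 minus that in R1/2 was -0.29 ± 0.09 (adjusted p = 0.0386), where 12.9% of all genes were called in that direction, and was lost on leaving out any 1 of 11 libraries (0.0509 to 0.093) and in edgeR's test (0.0931). Dnmt1 at E12.5 R3 was at -0.24 ± 0.10 (adjusted p = 0.0746) on the deposited scale and 0.20 in CPM, and its other 3 differences lay between -0.038 and 0.012. Tet1 passed the genotype test in no day or sort. At E14.5 R1/2 it had 27.1, 38.3 and 25.2 in Gata1s against 75.4 and 56.8 in wild type, without overlap, which held for 20.6% of all genes in that direction.

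By genotype, 1 member was called higher and 1 lower at E14.5 R3 (16.8% and 20.7% of all genes tested), and 3 higher and 1 lower at E12.5 R3 (14.2% and 21.7%). Limma called 0 members at E14.5 R1/2 (10.1% of genes) and at E12.5 R1/2 (9.55%), where 1 member, Dnmt3b, had an unadjusted p under 0.05 and was called by edgeR's test at each day. The mean of the 4 differences was called higher for 3 members (19.7% of genes). Of all genes called, 39.7% were higher in Gata1s at E12.5 R3 on the deposited scale, but 85.8% in CPM, where the median of all genes was 0.43, and 54.4% after quantile normalisation. At E14.5 R3 the share was 44.8%, and 59.8% in CPM, and for the mean of 4 it was 43.5%, and 73.3% in CPM (median 0.12). For the genotype effect in R3 minus that in R1/2 it was 40.6%, and 82.4% in CPM (median 0.21), and for the effect at E14.5 minus that at E12.5 it was 71.2%, and 42.6% in CPM (median -0.14).

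Between days, members were called in Gata1s R3, 2 higher and 2 lower at E14.5 on the deposited scale (29.5% and 30.5% of all genes). Of all genes called there, 49.1% were higher on this scale and 11.5% in CPM. Dnmt3a had 47.9 and 29.6 normalised counts at E14.5 against 141.5 and 142.7 at E12.5 (log2 difference -1.89 ± 0.27, adjusted p = 2.19e-05, limma). Tet2 had 70.1 and 35.0 at E14.5 against 144.99 and 204 at E12.5 (-1.78 ± 0.28, 5.22e-05). Both were lower on each scale run. Tet3 had 2106 and 2020 at E14.5 against 1258 and 1204 at E12.5 (0.74 ± 0.12, 5.7e-05) and Dnmt1 14109 and 13087 at E14.5 against 10568 and 9808 at E12.5 (0.42 ± 0.10, 0.00228), but in CPM, where the median of all genes was -0.94, these read -0.16 and -0.49. Dnmt3b was at -0.69 ± 0.32 (0.0755).

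In wild-type R3, 0 members were called between days by limma or edgeR (40.7% of genes called), and 0 had an unadjusted p under 0.05. Without the third E12.5 library Dnmt1 (0.0275) and Dnmt3b (0.0104) were called, and without the first E14.5 library Tet2 was (0.0308). In CPM, where the median of all genes was -0.55, 6 members were called, beside 475 genes higher and 6573 lower of the 10720, so that 6.74% of the genes called were higher, against 52.0% on the deposited scale. In R1/2, limma and edgeR called 0 members between days in Gata1s (1.32% of genes, with 1 member at an unadjusted p under 0.05) and 0 in wild type (1.04%, with 0).

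Ordered by group mean, Dnmt1 ran from 13598 ± 722 in Gata1s E14.5 R3 to 6307 ± 333 in Gata1s E14.5 R1/2 (SD, n = 2 and 3). Dnmt3b ran from 1219 ± 31.8 in Gata1s E12.5 R1/2 to 29.1 ± 1.02 in wild-type E14.5 R3 (n = 4 and 2), and Dnmt3a from 749.8 ± 102 in Gata1s E12.5 R1/2 to 38.8 ± 12.9 in Gata1s E14.5 R3 (n = 4 and 2). Many neighbours in these orders overlapped. Of 7 neighbouring pairs of groups, 5 overlapped for Dnmt1, 6 for Uhrf1, 3 for Dnmt3a, 4 for Dnmt3b, 5 for Tet1, 6 for Tet2 and 6 for Tet3.

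The genes most like each member, by Pearson r of the 8 group means of log2(normalised count + 1) among 8593 genes, were Sp1, Tpx2 and Brox for Dnmt1 (0.998 to 0.999) and Ahi1, Mprip and Plekho2 for Uhrf1 (0.996 to 1.00). They were Ogfod1, Hexa and Ifrd1 for Dnmt3a (0.998) and Iqcc, Tomm34 and Csk for Dnmt3b (0.997 to 0.998). For the Tet genes they were Khk, Iqgap1 and Ptprs (Tet1, 0.995 to 0.998), Tbc1d8, Agtrap and Nap1l1 (Tet2, 0.988 to 0.990) and Midn, Mta3 and Wipf2 (Tet3, 0.963 to 0.980). The 500th gene still had an r of 0.985 for Dnmt1 and 0.802 for Tet3, and the groups share the contrast of sorts, so the names describe a pattern held by many genes. Among members, Dnmt1 and Uhrf1 had an r of 0.972 and Dnmt3a and Dnmt3b of 0.944, while Tet3 had -0.75 to 0.68 with the others.

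Genes around these enzymes were read from lists of related genes in 2 comparisons, Gata1s minus wild type in E14.5 R3 and R3 minus R1/2 in wild-type E14.5. Counts are over the listed genes that passed the filter on low values, and values in brackets are log2 differences with their SE. Each count is to be read beside the shares of all genes called on the deposited scale. These were 16.8% higher and 20.7% lower by genotype, and 37.7% and 41.6% between sorts. A list near these shares is no different from genes at large. In CPM most genes called between sorts were lower, as given above. Of 41 S phase genes, which rise when cells replicate DNA, 0 were called higher and 34 lower in Gata1s E14.5 R3 (median log2 difference -0.41, against -0.053 for all genes), where 16.8% of all genes were called higher and 20.7% lower. The lower count was 22 without the second Gata1s library and 15 in CPM. Cyclin E1 (Ccne1, -1.57 ± 0.13) and the DNA polymerase subunit Pold1 (-0.92 ± 0.08) were named by the smallest p. In the same comparison Dnmt1 was at 0.012 ± 0.11 and Uhrf1 at -0.23 ± 0.10, neither called.

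Between sorts in wild-type E14.5, 33 of the 41 S phase genes were called higher and 3 lower on the deposited scale (median 0.61, against -0.11 for all genes, of which 37.7% and 41.6% were called), but 2 higher and 32 lower in CPM (median -0.65, against -1.35) and 10 and 16 after quantile normalisation. The S phase activator E2f1 (2.04 ± 0.08) and the ribonucleotide reductase subunit Rrm2 (2.27 ± 0.11) were higher on each scale, and the clamp loader subunit Rfc5 (-0.26 ± 0.07) and the mismatch repair gene Msh6 (-0.47 ± 0.13) lower, the last not called without the second R3 library (0.154).

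Of 17 partners of maintenance methylation, 1 was higher and 7 lower in Gata1s E14.5 R3 (median log2 difference -0.18). The lower count was 4 without the second Gata1s library and in edgeR's test, and 2 in CPM. The replication clamp Pcna (-0.50 ± 0.08) and the histone-binding protein Rbbp4 (-0.47 ± 0.09) were lower. The RNA methyltransferase Trdmt1 (0.76 ± 0.23) was higher, a call lost in edgeR's test (0.21) and without the first Gata1s (0.129) or the second wild-type library (0.308). Between sorts 9 were higher and 8 lower (median 0.36, but -0.90 in CPM, with 3 and 11, and -0.39 after quantile normalisation, with 5 and 9), with the deubiquitinase Usp7 (2.03 ± 0.08) and Rbbp4 (1.81 ± 0.09) higher and the deacetylase Hdac2 (-1.13 ± 0.08) and Cdca7l (-2.49 ± 0.23) lower. Of 10 methyl-CpG readers, 3 were higher and 1 lower by genotype (median 0.22, and 2 lower without the second wild-type library), with Mbd5 (1.36 ± 0.23) higher and Zbtb38 (-1.08 ± 0.24) lower, not called by edgeR (0.203). Between sorts 5 readers were higher and 2 lower (median 0.34, but -0.92 in CPM, with 1 and 7), with Mbd6 (1.31 ± 0.12, not called in CPM) higher and Zbtb38 (-2.96 ± 0.23) and Zbtb33 (-1.35 ± 0.18) lower.

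Of 17 TET partners and enzymes of 2-oxoglutarate, 3 were higher and 5 lower in Gata1s E14.5 R3 (median -0.14, and 2 lower without the second Gata1s library, 1 in CPM). Cytosolic isocitrate dehydrogenase Idh1, which makes 2-oxoglutarate, had 221 and 207 normalised counts in Gata1s against 39.7 and 42.5 in wild type (2.34 ± 0.17, adjusted p = 4.35e-08, limma, and 4.95e-07, edgeR). The succinate dehydrogenase subunit Sdha (0.40 ± 0.07) was also higher, and fumarase Fh1 (-0.36 ± 0.08) and Wdr76 (-0.51 ± 0.12) were lower, neither of these 2 called in CPM (0.0679 and 0.0689), nor Wdr76 without the second Gata1s library (0.0511). Between sorts 6 were higher and 6 lower (median -0.0062, and 2 and 15 in CPM), with the 2-oxoglutarate dehydrogenase subunit Ogdh (2.28 ± 0.11) and the TET-binding enzyme Ogt (2.51 ± 0.14) higher and Idh3a (-1.52 ± 0.09) lower. Of 16 genes for removal of oxidised bases, 3 were higher and 3 lower by genotype (median 0.16, and 5 higher without the first wild-type library), with Gadd45g (1.92 ± 0.22) and the ligase Lig3 (0.58 ± 0.10) higher and Parp1 (-0.79 ± 0.09) and the nuclease Fen1 (-0.47 ± 0.09) lower. Between sorts 6 were higher and 7 lower (median -0.48, and 3 and 10 in CPM), with the glycosylase Neil3 (3.37 ± 0.15) and Gadd45a (4.04 ± 0.21) higher and Lig3 (-2.50 ± 0.10) and Parp1 (-1.53 ± 0.09) lower.

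Of 23 genes of the methyl-donor cycle, 3 were higher and 6 lower in Gata1s E14.5 R3 (median -0.14), with Shmt2 (0.72 ± 0.10) higher and Mthfd1 (-1.20 ± 0.14) and adenosine kinase Adk (-0.69 ± 0.10) lower. Between sorts 6 were higher and 14 lower (median -0.53, and 2 and 20 in CPM), with thymidylate synthase Tyms (1.44 ± 0.09, not called in CPM) and Mthfd2 (1.56 ± 0.11) higher and Mthfd1 (-2.57 ± 0.14) and spermidine synthase Srm (-3.92 ± 0.22) lower. Of 18 genes of histone marks that steer DNA methylation, 6 were higher and 6 lower by genotype (median -0.056, but 0.048 in CPM, with 6 and 1), with the H3K9 methyltransferase Setdb1 (0.91 ± 0.09) and the demethylase Kdm5b (1.64 ± 0.17) higher and the insulator protein Ctcf (-0.47 ± 0.08) and Ehmt1 (-0.38 ± 0.09, not called in CPM) lower. Between sorts 6 were higher and 10 lower (median -0.41, and 0 and 15 in CPM), with Whsc1 (1.29 ± 0.09, not called in CPM) and Ctcf (1.08 ± 0.08, but -0.18 in CPM) higher on the deposited scale and Ehmt2 (-3.06 ± 0.15) and Trim28 (-1.64 ± 0.10) lower. The genes named from these lists had an adjusted p of at most 0.017 (limma) on the deposited scale.

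**Figure D4:**
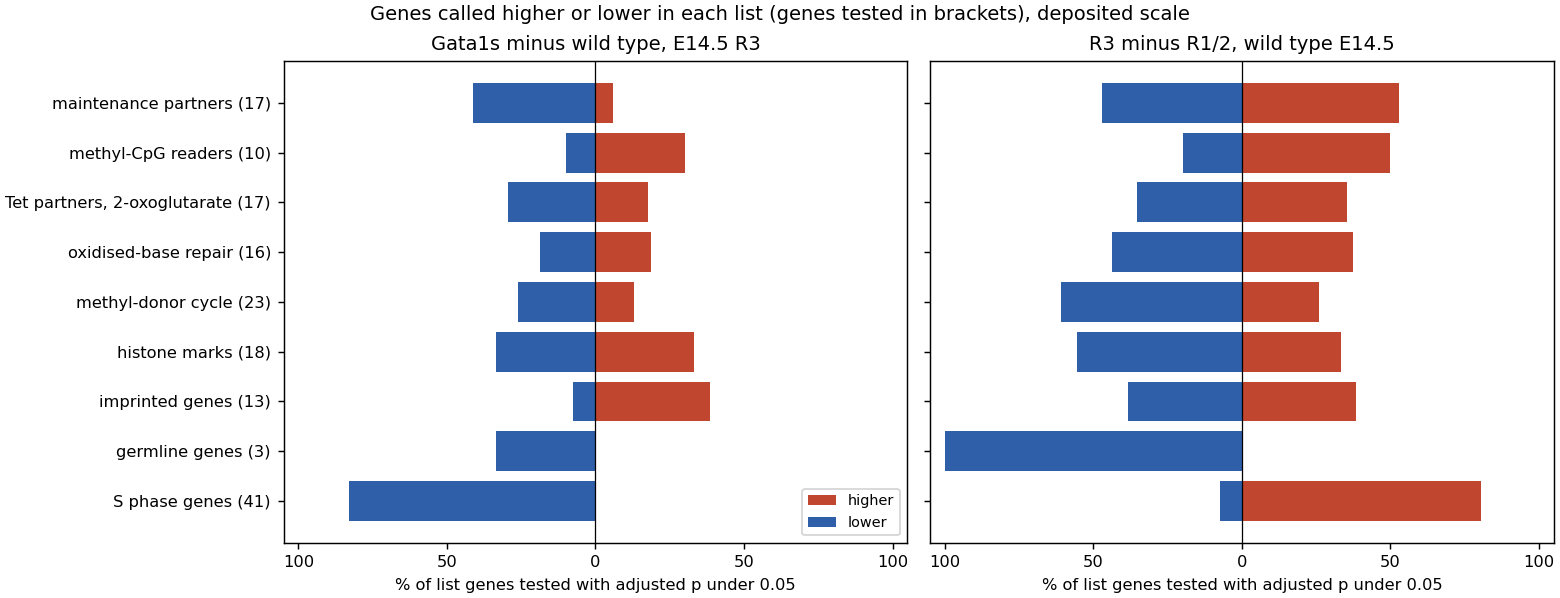
Share of the tested genes of each list called higher or lower (limma, deposited scale) in Gata1s minus wild type at E14.5 R3 and in R3 minus R1/2 of wild-type E14.5. S phase genes were mostly lower between genotypes (34 of 41) and mostly higher between sorts (33 of 41), the second turned in CPM (2 higher and 32 lower).

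Lists of 25 imprinted and 25 germline genes, kinds known to be controlled by DNA methylation, were read, and 13 and 3 passed the filter. Passing needs RNA in these cells, so the 3 germline genes are not ones held silent in all groups. Methylation of the listed genes was not measured. Of the 13 imprinted genes, 5 were called higher and 1 lower in Gata1s E14.5 R3 (median 0.22, and 2 lower without the second wild-type library). Of all genes, 16.8% were called higher and 20.7% lower there. The IGF2 receptor gene Igf2r had 2751 and 2325 normalised counts in Gata1s against 574 and 496 in wild type (2.27 ± 0.12, adjusted p = 1.83e-09, limma, and 5.59e-09, edgeR). The growth inhibitor Grb10 had 2707 and 2592 in Gata1s against 1340 and 1119 in wild type (1.13 ± 0.10, 2.76e-07 and 7.34e-07 in the same tests). Peg3 was lower, with 107 and 59.3 in Gata1s against 571 and 604 in wild type (-2.84 ± 0.30, 2.4e-06 and 3.45e-06). None of these groups overlapped, which held for 25.8% of all genes in the higher and 31.5% in the lower direction. Between sorts in wild-type E14.5, 5 imprinted genes were higher and 5 lower (median -0.49), close to the 37.7% and 41.6% of all genes. In CPM 4 were higher and 8 lower. The median turned to 0.41 after quantile normalisation (6 and 4) and 0.19 in edgeR's fit (5 and 4). Named by the rule were Zrsr1 (3.59 ± 0.19) and H19 (2.39 ± 0.29, and 1.74 without the first R1/2 library) higher and Grb10 (-1.98 ± 0.09) and Igf2r (-1.37 ± 0.12) lower. All 3 germline genes were called lower in wild-type E14.5 R3 than R1/2, where 41.6% of all genes were. Among them were Tdrkh (-1.84 ± 0.32) and Ccnb1ip1 (-2.71 ± 0.50). The count of 3 fell to 2 after quantile normalisation. By genotype 1, Ccnb1ip1, was called lower in Gata1s E14.5 R3, where 20.7% of all genes were.

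Ccnb1ip1, needed for meiotic crossing over, had 0 reads in 10 of the 11 Gata1s libraries and 2 reads in the other, against 51.9 to 516 normalised counts in the 9 wild-type libraries. The gene thus passed the filter on low values through wild-type libraries alone. Against a floor of 3 reads per library, the Gata1s level lay at least 8.50-fold lower than the wild-type mean in E14.5 R3. In E12.5 R3 Gata1s lay at least 31.4-fold lower, and in E12.5 R1/2 at least 209-fold lower.

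**Figure D5:**
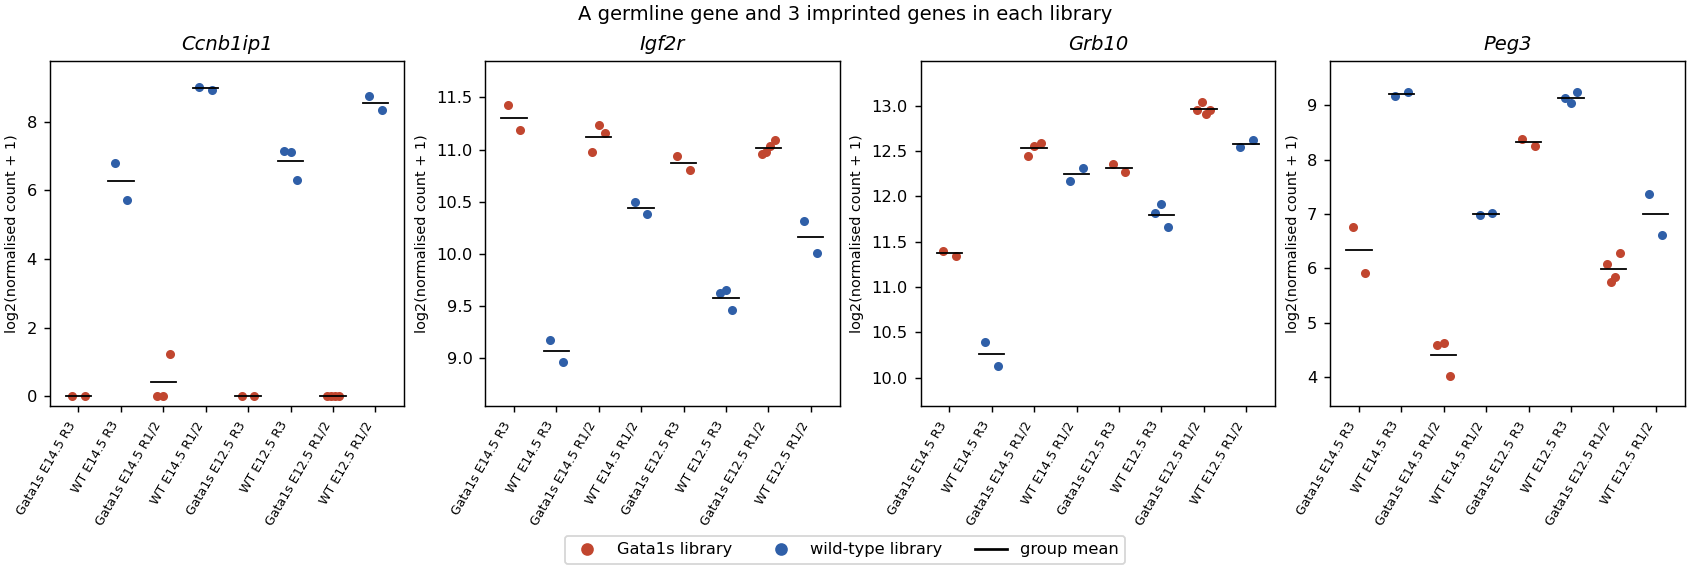
Level of Ccnb1ip1, Igf2r, Grb10 and Peg3 in each library, as log2(normalised count + 1) on the deposited scale, Gata1s and wild type side by side in each day and sort. Ccnb1ip1 is at 0 in 10 of 11 Gata1s libraries, and Igf2r and Grb10 stand higher and Peg3 lower in Gata1s in each day and sort.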

How the data were processed

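RNA of 20 libraries in 8 groups was analysed, and the other samples of the 60 in the series were not analysed here. The authors deposited a table of normalised counts per gene, a signal scaled by library. Per the submitters' processing notes, which give no roles, Bowtie2, Trim Galore, HTSeq, TopHat2 and DESeq2 were used with mm9 and mm10. Libraries were poly-A selected and strand-directional, per the labels' protocols. Dividing each deposited column by its smallest value above 0 gave whole reads for 100% of values (tolerance 0.001 reads), 6931315 to 32699098 reads per library. Of the columns, 1 matched no sample and was not used, and 27 entries spoiled into dates, 0.199 to 0.359% of reads, were left out.

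Values were tested as log2(normalised count + 1) with limma 3.58.1 (R 4.3.3, trend, 8 group means and a term for the library name prefix) over 10720 genes with a mean of at least 10, with Benjamini-Hochberg adjustment over all of them and a threshold of 0.05. A fold change on this scale understates the change of low genes. Alternatives were edgeR 4.0.16 (quasi-likelihood, TMM) and DESeq2 1.42.0 on recovered reads, other pseudocounts, filters and scalings, prefix or replicate terms, and leaving out each library. CPM of recovered reads, with and without globin genes, were added after seeing the data. On simulated data the log-scale test called too many unchanged low genes in E14.5 R3 and edgeR did not, so edgeR's adjusted p stands beside the members' genotype calls in R3, while most list genes carry limma's alone. Replicates correlated at 0.965 to 0.994, and no pair agreed within sampling noise. Members and lists were chosen with earlier results of these data known. From each list the text names up to 2 genes called higher and 2 lower with the smallest adjusted p and a mean of at least 50, and for each member the 3 genes with the highest r. Some genes that this rule names are not reported here. Floors cover counting error only, and the 95% interval given for Tet2 is limma's and rests on the spread between libraries.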

Additional observations from a re-analysis of the deposited data

Results flagged for a closer look

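In 3 results the effect of genotype itself differed between sorts or days by a test of that difference (limma, Benjamini-Hochberg adjusted). For Tet2 the effect in R3 minus that in R1/2 was 0.989 on the log2 scale (adjusted p = 0.0159). At E12.5 R3 both Gata1s libraries had higher counts than all 3 wild-type ones, as held for 25.2% of all genes. At E14.5 R3 the Tet2 groups overlapped. The call of the Tet2 difference between sorts was lost after quantile normalisation, within prefix MS and without the second wild-type library of E14.5 R3. For Uhrf1 the same difference was -0.289 (adjusted p = 0.0386), lost in edgeR's test (0.0931), after quantile normalisation or upper-quartile scaling, in CPM, with no filter or no prefix term, and on leaving out any 1 of 11 libraries. For Dnmt3a the effect at E14.5 minus that at E12.5 was -0.902 (adjusted p = 0.0398), lost with no filter or no prefix term, within prefix MS, in CPM outside globin genes and on leaving out any 1 of 13 libraries. All 3 were lost with the replicate block. In the group of 4 libraries, 7 member values were tested for a library far from the rest and 0 were found.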

How the results depend on the processing

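Over 41 called results of members, 618 values under other settings kept direction and call in 543, lost the call in 51 and turned direction in 24. The cause was not tested.

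Turned values, R3 minus R1/2 at E14.5 after quantile normalisation, in CPM and CPM outside globin genes, were -0.13 and -0.12 for Dnmt1 in Gata1s (the third kept its sign) and -0.18, -0.21 and -0.022 in wild type, -0.56, -0.53 and -0.39 for Uhrf1 in Gata1s and -0.27, -0.27 and -0.080 in wild type, and -0.13, -0.96 and -0.77 for Tet3 in wild type. Tet3 in Gata1s turned to -0.38 and -0.24 in the last 2. Between days in Gata1s R3, Dnmt1 turned to -0.45, -0.49 and -0.38, and Tet3 to -0.16 and -0.051. Gata1s minus wild type at E12.5 R3 turned to 0.14, 0.17 and 0.082 for Uhrf1. Some results that were not called, and so lie outside the 24, turned too. Dnmt1 by genotype at E12.5 R3 (-0.24) turned to 0.20, 0.20 and 0.11. The mean of 4 for Uhrf1 (-0.10) turned to 0.045 and 0.012. Tet3 by genotype at E12.5 R3 (-0.096) turned in CPM, where the Gata1s libraries lay above wild type. Uncalled Tet2 values were 0.23 under quantile normalisation and 0.011 with the replicate block in Gata1s E12.5, R3 minus R1/2 (-0.26 to 0.23 leaving out single libraries), and -0.22 to 0.76 by genotype in E14.5 R3.

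Members called by genotype at E12.5 R3 were 4, but 2 with no filter, with no prefix term and in DESeq2, and 1 after quantile normalisation, with the replicate block and in edgeR (1 to 3 leaving out single libraries). At E14.5 R3 they were 2, and 0 with the compared groups alone (1 to 2). At E12.5 R1/2 they were 0, and 1 after quantile normalisation, within prefix JC, with the compared groups alone, in edgeR and in DESeq2 (0 to 1). At E14.5 R1/2 they were 0, and 1 within prefix MS, with the compared groups alone, in edgeR and in DESeq2. For the mean of 4 they were 3, and 1 with the replicate block (1 to 3). In wild-type E14.5, R3 minus R1/2, they were 7, and 4 after quantile normalisation. Between days they were 0 in wild-type R3, and 2 after quantile normalisation and 6 in CPM with or without globin genes (0 to 2), and 0 in Gata1s R1/2, and 2 with the compared groups alone. For the genotype effect between sorts they were 2, and 1 with no filter, upper-quartile scaling, no prefix term, edgeR and both CPM scales, and 0 after quantile normalisation and with the replicate block (1 to 2). For that between days they were 1, and 0 with no filter, no prefix term, the replicate block and CPM outside globin genes, and 2 in DESeq2 (0 to 2).

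Same-numbered libraries deviated together (r over 0.1) in 6 of 25 pairs, so the numbers were not taken to pair samples. In groups of 2 libraries the deviations mirror each other, so the same r can count more than once. Library names of prefix MS run in couples of R1/2 and R3, as MS24 and MS25 in Gata1s E12.5. Replicate numbers mostly set other libraries together, so the check covers few of these couples. Whether such couples are paired samples was not tested, and the main fit took the sorts as unpaired. With 0 to 6 reads per R3 library, depth limits Tet1, and with 6 to 81 it limits Dnmt3b.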
